A study of Homo sapiens with 4 samples.

Results

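The genes described here were 10 alpha and beta tubulin isotypes, the 4 alpha genes TUBA1A, TUBA1B, TUBA1C and TUBA4A and the 6 beta genes TUBB, TUBB2A, TUBB2B, TUBB3, TUBB4B and TUBB6. They were chosen by gene symbol. The rule used no measured value, but earlier results of these data were known when the genes were chosen. They held 32 of the 63714 transcripts and 10 of the 27685 genes in the tables. RNA was sequenced from HT-29 cells, a human colorectal adenocarcinoma line, that stably expressed either an empty control vector or Myc-TRIM40. TRIM40 is a member of the tripartite motif family of ubiquitin ligases, carried here with a Myc tag by a retroviral vector, and both cell populations had been selected with puromycin. There were 2 independent experiments with 1 control and 1 Myc-TRIM40 library in each, so that each condition had 2 libraries. TRIM40 itself had 0 reads in each control library, against 272646 with Myc-TRIM40 in experiment 1 and 110665 in experiment 2. The genes lie apart in the genome (hg19): TUBA1B (49521567 to 49525304), TUBA1A (49578578 to 49583107) and TUBA1C (49621709 to 49667121) share chromosome 12, TUBB2A (3153901 to 3157783) and TUBB2B (3224495 to 3227968) share chromosome 6 with TUBB, and TUBB4B lies on chromosome 9 (140135711 to 140138159), TUBB3 on chromosome 16 (89988417 to 90002505) and TUBB6 on chromosome 18 (12307668 to 12329824).

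Microtubules are hollow polymers of alpha and beta tubulin heterodimers, and human cells encode each subunit by several genes whose proteins differ mostly in their carboxy-terminal tails. Cells hold tubulin messages under feedback, since free dimers lead to the decay of tubulin mRNAs while they are being translated. In intestinal epithelium microtubules carry vesicles and organelles to the apical and basal membranes and build the spindle of dividing cells.

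The end of the coding sequence is where the isotypes differ most, and it is shown for the beta genes because it bears on how reads can be assigned to one gene or another. Each line gives the last 60 coding bases with the stop codon, read from the GENCODE transcript that matches the RefSeq variant with the most reads, and capitals mark bases that differ from TUBB4B, or have no counterpart in it, after a pairwise alignment that allows gaps, so that the printed lines are not in register base by base.
TUBB4B: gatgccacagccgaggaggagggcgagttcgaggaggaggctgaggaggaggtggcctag
TUBB: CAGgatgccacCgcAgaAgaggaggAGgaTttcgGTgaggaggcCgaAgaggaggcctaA
TUBB2A: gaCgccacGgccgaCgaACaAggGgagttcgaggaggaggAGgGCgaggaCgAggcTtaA
TUBB2B: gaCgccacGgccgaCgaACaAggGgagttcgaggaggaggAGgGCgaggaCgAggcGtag
TUBB3: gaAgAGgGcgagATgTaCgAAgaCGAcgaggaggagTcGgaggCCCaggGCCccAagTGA
TUBB2A and TUBB2B aligned with TUBB4B without gaps and differed from it at 15 and 14 bases. TUBB differed at 11 aligned bases and TUBB3 at 22, and in each of these alignments 3 bases had no counterpart in the TUBB4B stretch and 3 TUBB4B bases had none in the other. TUBA4A is the alpha isotype known to be encoded without the terminal tyrosine of the others. Over the whole coding sequence TUBA1A was 97.2% identical to TUBA1B, TUBA1B was 96.8% identical to TUBA1C, and TUBA4A was 85.7% identical to TUBA1B. TUBB2A and TUBB2B were the closest beta pair, with 98.1% identity, whereas TUBB was 84.7% identical or less to the other beta genes compared. TUBB6 was left out because the variant with nearly all of its few reads has a short coding sequence.

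The share of a transcript that another gene repeats exactly was therefore uneven. Of all stretches of 100 bases in the main transcript, 18.3% of those in TUBA1A, 37.2% of those in TUBA1B and 11.5% of those in TUBA1C were also found in another gene. The TUBA1C share was taken over a GENCODE transcript of 3001 bases, whereas the counted variant has 1644. It may therefore be too low for the counted variant. The share was 56.4% for TUBB2A and 46.2% for TUBB2B, nearly all of it with each other. In TUBA4A, TUBB and TUBB4B it was 1.84%, 5.10% and 2.86%, so that little of their sequence recurred elsewhere. TUBB3 had 89.0%, from an annotated readthrough transcript that runs through the neighbouring melanocortin receptor gene MC1R into TUBB3. This readthrough overlaps TUBB3 itself, and 5.15% of the TUBB3 stretches recurred in another of the 10 isotypes. How far readthrough reads entered the TUBB3 values was not measured. Values of TUBA1A, TUBA1B, TUBA1C, TUBB2A and TUBB2B are uncertain because other genes repeat their sequence, by an amount that was not measured. How reads that match several genes were assigned, and whether the counting used the strand that the library kit kept, is not given in the sources used here.

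Libraries held between 60954602 and 67424698 reads. The control library of experiment 2 stood apart, because 33.9% of the 11801 expressed genes (mean FPKM of 1 or more) differed by 1.5-fold or more between the 2 control libraries and 13.7% between the 2 Myc-TRIM40 libraries. Against control 1, control 2 had a median log2 ratio of 0.48 in the tenth of genes with the shortest transcripts and of -0.70 in the tenth with the longest. Within experiment 2 these medians were -0.41 and 0.54 for Myc-TRIM40 over control, and within experiment 1 they were -0.04 and 0.04. The median gene differed by a log2 FPKM ratio of 0.01 in experiment 1 and 0.10 in experiment 2, and by 0.04 and 0.33 on the TPM scale. Most markers of colon epithelium were abundant, with KRT8 between 3355 and 4435 FPKM. The intestinal transcription factors CDX2 and CDX1 reached no more than 1.39 and 0.414 FPKM, and GPA33 no more than 1.08 FPKM. Of 7 neuronal markers 5 had at most 3 reads in every library, and the list summed to between 0.306 and 0.585 FPKM. The summed level of 6 fibroblast markers lay between 0.891 and 1.39 FPKM and that of 4 endothelial markers between 0.0679 and 0.134 FPKM. The 5 leukocyte markers summed to between 1365 and 1869 FPKM, of which lysozyme (LYZ) alone made 1356 to 1860, while CD3E had 0 reads and PTPRC at most 4. CD14 lay between 1.43 and 2.61 FPKM, and CD68 had 6.99, 11.9, 5.86 and 7.17 FPKM in control 1, Myc-TRIM40 1, control 2 and Myc-TRIM40 2, a log2 ratio of FPKM + 1 of 0.69 in experiment 1.

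FPKM is a fragment count normalized to transcript length and sequencing depth, so levels can be compared between genes. TUBA1B was the most abundant isotype in every library, at 1181 FPKM in control 1, 1043 in Myc-TRIM40 1, 1209 in control 2 and 1116 in Myc-TRIM40 2. TUBB4B, the main beta isotype of these cells, had 731, 682, 675 and 645 FPKM in the same order, and TUBA1C had 586, 539, 659 and 528. The ranges of TUBB4B and TUBA1C overlapped each other, and that of TUBA1B lay above both. The next group held TUBB, TUBA4A, TUBA1A and TUBB2A, with means of 131, 64.9, 49.5 and 15.2 FPKM, and the range of each over the 4 libraries overlapped that of the next. TUBB3, the class III isotype typical of neurons, had a mean of 8.07 FPKM and overlapped TUBB2B, with a mean of 6.42. TUBB6 had 0 reads in experiment 1 and 16 and 14 reads in control and Myc-TRIM40 of experiment 2, and it lay below all others.

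**Figure D1:**
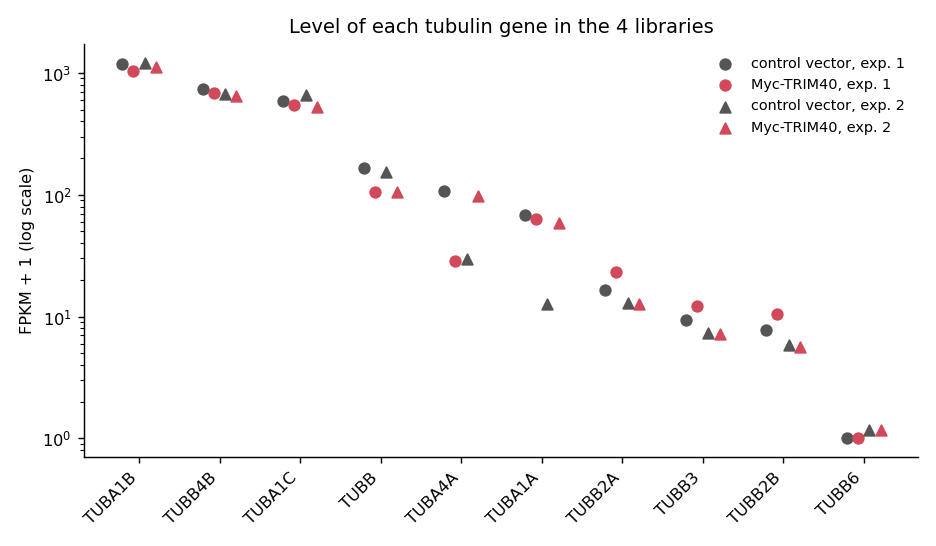
Level of the 10 isotypes as FPKM + 1 on a log axis, 1 point per library, grey for control vector and red for Myc-TRIM40, circles for experiment 1 and triangles for experiment 2. TUBA4A splits across conditions, with 106 and 97.5 FPKM in control 1 and Myc-TRIM40 2 and 27.6 and 28.5 in the other libraries, and TUBA1A is low in control 2 alone, at 11.6 FPKM.

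The first comparison asked whether tubulin messages differed between Myc-TRIM40 and control cells. No isotype did so by a test over both experiments. TUBB, the widely expressed class I beta tubulin, was lower in both Myc-TRIM40 libraries, TUBA4A moved by more than 3-fold in opposite directions in the 2 experiments, and TUBA1A differed in experiment 2 alone. In edgeR's quasi-likelihood test with the experiment as a block, all 10 genes were tested, and 0 were called higher and 0 lower at a Benjamini-Hochberg adjusted p of 0.05. Over all 14868 genes tested 0.0404% were called higher and 0.0202% lower, and at an unadjusted p of 0.05, where 3.41% of genes were higher and 1.13% lower, TUBB alone among the 10 was lower. DESeq2 and limma likewise called 0 of the 10. The median log2 fold change of the 10 was -0.16 and 4 of them were positive, beside a median of 0.04 for all genes tested. The 2 libraries per condition come from separate experiments, and with 1 residual degree of freedom the p-values rest mostly on a spread borrowed from all genes.

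TUBB had 165 FPKM in control 1 and 103 in Myc-TRIM40 1, and 151 in control 2 and 105 in Myc-TRIM40 2. Both Myc-TRIM40 values lay below both control values, and libraries of 1 condition lay close together. The mean was 158 ± 9.71 FPKM in control and 104 ± 1.17 FPKM in Myc-TRIM40 (SD, n = 2 each). An exact two-sided permutation test gave p = 0.333, the smallest that 2 libraries against 2 can give. It exchanged libraries across experiments and so ignored their pairing. The log2 ratio of FPKM + 1 was -0.67 in experiment 1 and -0.52 in experiment 2, and TUBB was lower on the TPM scale as well, at -0.64 and -0.29. The edgeR log2 fold change was -0.71 with a standard error of 0.20, an unadjusted p of 0.00768 and an adjusted p of 0.872. Without control 2 it was -0.64 with an unadjusted p of 0.0745. Of the 11801 expressed genes 20.8% were lower with Myc-TRIM40 within both experiments. The share with both Myc-TRIM40 values below both control values was not measured. The genes beside TUBB did not share its pattern in these values, as FLOT1, a lipid raft protein, had 68.9, 88.3, 64.6 and 80.1 FPKM in the order control 1, Myc-TRIM40 1, control 2 and Myc-TRIM40 2. MDC1, a DNA damage mediator on the other side, had 24.8, 21.9, 8.98 and 18.5 FPKM.

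TUBB lies on chromosome 6 from 30687978 to 30693203 (hg19), and its 7 listed transcripts use 2 start positions, 30687978 for variants 2, 3, 4 and 7 and 30689326 for variants 1, 5 and 6. The reads given to the upstream start numbered 17390 in control 1, 10257 in Myc-TRIM40 1, 25298 in control 2 and 11522 in Myc-TRIM40 2. Those given to the downstream start numbered 6981, 5428, 1893 and 4907 in the same order. The downstream start thus took 28.6%, 34.6% and 29.9% of TUBB reads in 3 libraries and 6.96% in control 2. Variant 2 alone took 71.5% of TUBB reads in control 2 and between 20.7% and 30.0% in the other libraries, while variant 3 took 6.70% there and between 28.7% and 39.8% elsewhere. The total of the gene did not follow this split, since both control libraries had more TUBB reads than both Myc-TRIM40 libraries. Within experiment 1, where the split differed less between the libraries, the reads of both starts were fewer with Myc-TRIM40. Within experiment 2 the downstream start had more reads with Myc-TRIM40 and the upstream start fewer. Transcript reads are estimates over shared exons, and whether the split in control 2 came with the library's length trend was not tested.

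**Figure D2:**
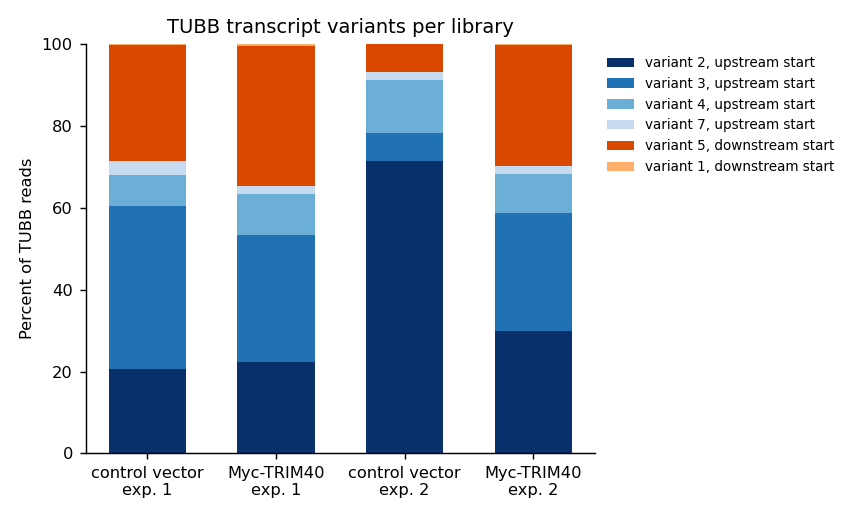
Percent of the TUBB reads given to each transcript variant in the 4 libraries, blue for variants of the upstream start and orange for those of the downstream start. Control 2 gives 71.5% to variant 2 and 6.96% to the downstream start, where the other libraries give the downstream start 28.6% to 34.6%.

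The RefSeq promoter table (GRCh38) also lists 2 starts for TUBB, and the 250 bases before each are shown. These starts are not spaced as the counted starts are, at 30687978 and 30689326 (hg19). At least 1 window therefore does not end at a counted start, and part of a window may lie inside a counted transcript. The upstream window is chr6:30720102-30720351 and the downstream one chr6:30721388-30721637, both on the plus strand, and capitals mark the CCAAT box (CCAAT) and the GC box (GGGCGG) found on either strand.
TUBB upstream: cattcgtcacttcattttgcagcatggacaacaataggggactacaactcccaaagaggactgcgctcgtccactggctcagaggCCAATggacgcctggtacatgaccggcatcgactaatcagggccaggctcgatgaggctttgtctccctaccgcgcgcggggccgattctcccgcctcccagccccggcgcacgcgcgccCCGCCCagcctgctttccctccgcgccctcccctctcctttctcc
TUBB downstream: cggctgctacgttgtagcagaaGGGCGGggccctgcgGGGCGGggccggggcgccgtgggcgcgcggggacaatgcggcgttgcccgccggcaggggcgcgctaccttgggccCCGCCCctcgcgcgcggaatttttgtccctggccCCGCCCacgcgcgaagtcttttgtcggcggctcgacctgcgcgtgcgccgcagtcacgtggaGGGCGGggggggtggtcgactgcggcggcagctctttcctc
The upstream window held 1 CCAAT box and 1 GC box, the downstream window held no CCAAT box and 5 GC boxes, and neither held a TATA box (TATAAA). Of 35116 promoters of the same length 32.0% held a CCAAT box, 42.6% a GC box and 10.7% a TATA box, both strands searched, and no searched motif shared letters with another kind here.

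TUBA4A had 106 FPKM in control 1, 27.6 in Myc-TRIM40 1, 28.5 in control 2 and 97.5 in Myc-TRIM40 2. One control and one Myc-TRIM40 library were high and the others low, so that the conditions overlapped fully. The log2 ratio of FPKM + 1 was -1.90 in experiment 1 and 1.74 in experiment 2. TUBA4A was past 1.5-fold in both, where 0.466% of all genes were lower in experiment 1 and 4.71% were higher in experiment 2. A change past 1.5-fold in opposite directions was found in 40 of the 11801 expressed genes, or 0.339%. The edgeR log2 fold change over both experiments was -0.16 with a standard error of 0.78 and an adjusted p of 0.978. The experiments cannot be compared by a test, because each held 1 library per condition.

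Nearly all TUBA4A reads belonged to transcript variant 1, with 13338 reads in control 1, 3518 in Myc-TRIM40 1, 4111 in control 2 and 12303 in Myc-TRIM40 2. Variant 2, which starts farther upstream, had 532, 92, 0 and 825 reads, or 3.84%, 2.55%, 0% and 6.28% of the gene. Both variants were higher in control 1 and Myc-TRIM40 2 than in the other libraries by these estimates. TUBA4A lies on chromosome 2 from 220114433 to 220119330 (hg19). It overlaps STK16, a kinase gene, by 627 bases, and STK16 had 8.05, 8.29, 8.07 and 7.01 FPKM in the order control 1, Myc-TRIM40 1, control 2 and Myc-TRIM40 2. The level of STK16 did not follow that of TUBA4A in these values. TUBA4B, a pseudogene overlapping TUBA4A by 1366 bases, had 0 reads in all libraries.

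The single promoter that RefSeq lists for TUBA4A is shown for reference, and whether it drives both variants was not tested. Variants 1 and 2 start at 220118668 and 220119330 (hg19, minus strand), so a window of 250 bases cannot lie directly before both. The window covers the 250 bases before the start at chr2:219253919-219254168 (GRCh38, minus strand), with GC boxes in capitals.
TUBA4A: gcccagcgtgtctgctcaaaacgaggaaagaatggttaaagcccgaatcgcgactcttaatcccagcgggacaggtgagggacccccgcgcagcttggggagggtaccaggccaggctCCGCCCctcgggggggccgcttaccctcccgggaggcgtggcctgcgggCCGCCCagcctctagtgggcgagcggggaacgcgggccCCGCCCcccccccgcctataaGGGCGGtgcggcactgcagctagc
It held 4 GC boxes and no CCAAT box or TATA box.

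By the smallest distance between profiles of log2 (FPKM + 1), centred on the mean of the 4 libraries, the genes nearest to TUBA4A among 11792 were SORD2P, CCDC115, DIABLO, DCAF5 and ZNF600, at distances of 0.517, 0.517, 0.761, 0.764 and 0.765. SORD2P, a pseudogene of sorbitol dehydrogenase, had 15.6, 4.40, 2.58 and 17.3 FPKM in control 1, Myc-TRIM40 1, control 2 and Myc-TRIM40 2. CCDC115, an assembly factor of the vacuolar proton pump, had 12.5, 4.54, 4.74 and 14.1 FPKM, and DIABLO, an antagonist of apoptosis inhibitors, had 25.6, 11.1, 13.0 and 27.9. Each was high in control 1 and Myc-TRIM40 2, as TUBA4A was, but the distance between high and low libraries was smaller in CCDC115 and DIABLO. DCAF5, a substrate receptor of a cullin ligase, and ZNF600, a zinc finger gene, were lowest in control 2, at 0.903 and 1.29 FPKM. The likeness rests on 4 libraries, and no test was made of it.

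**Figure D3:**
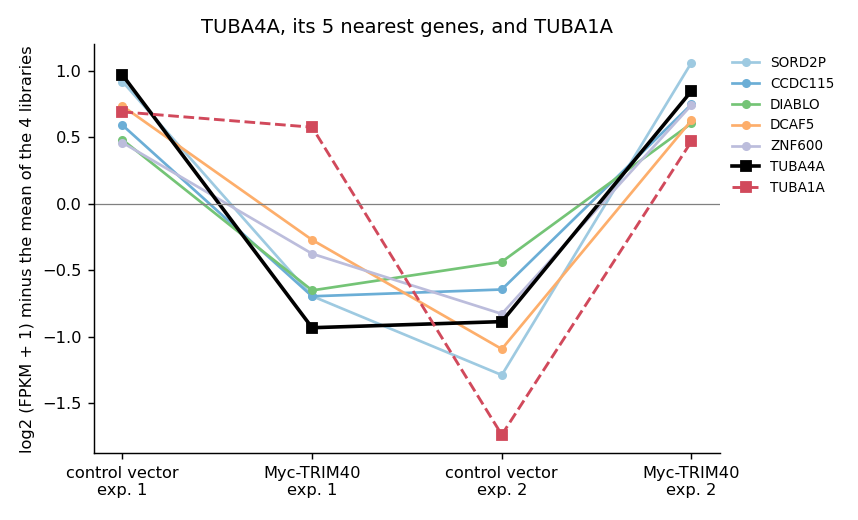
Log2 (FPKM + 1) minus the mean of the 4 libraries for TUBA4A (black), its 5 nearest genes (light lines) and TUBA1A (red, dashed), with libraries on the horizontal axis joined only to guide the eye. TUBA4A and its nearest genes are high in control 1 and Myc-TRIM40 2, whereas TUBA1A is low only in control 2.

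TUBA1A, an alpha isotype abundant in neurons, had 67.1 FPKM in control 1, 61.8 in Myc-TRIM40 1, 11.6 in control 2 and 57.4 in Myc-TRIM40 2. The values of 3 libraries lay close together, and control 2 was lower than each of them. The log2 ratio of FPKM + 1 was -0.12 in experiment 1 and 2.21 in experiment 2, against -2.43 between control 2 and control 1. The edgeR log2 fold change was 0.99 with a standard error of 0.48 and an adjusted p of 0.888, and without control 2 it was -0.18. Variants 1 and 2 of TUBA1A both had fewer reads in control 2, with 718 and 1067 against 3869 to 4327 and 4008 to 4320 in the others. Variant 3 had 524 reads in control 1 and 0 elsewhere. TUBA1B, with which TUBA1A shares sequence, had its highest value in control 2. The sum of TUBA1A, TUBA1B and TUBA1C had an edgeR log2 fold change of -0.22 with an unadjusted p of 0.185. The TUBA1A transcripts were 2196 bases long on average over reads, and centring on genes of like length left the ratio of experiment 2 at 2.24. By the same distance, chosen for TUBA1A after its values were seen, its 5 nearest genes were CLSTN1, MTUS1, RLIM, PDE10A and CHM, at 0.308 to 0.344. CLSTN1, a calsyntenin of vesicle transport, had 73.5, 75.9, 13.0 and 52.2 FPKM in control 1, Myc-TRIM40 1, control 2 and Myc-TRIM40 2.

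The most abundant isotypes differed little between conditions. TUBA1B had log2 ratios of FPKM + 1 of -0.18 and -0.11 in experiments 1 and 2, TUBB4B of -0.10 and -0.06, and TUBA1C of -0.12 and -0.32. All were lower with Myc-TRIM40 in FPKM and after TMM normalization. But on the TPM scale TUBA1B and TUBB4B were higher in experiment 2, at 0.12 and 0.17, beside a median TPM shift of 0.33. After centring on genes of like length the FPKM ratios of experiment 2 were 0.06 for TUBA1B, 0.11 for TUBB4B and -0.15 for TUBA1C. Those of experiment 1 stayed negative, at -0.18, -0.10 and -0.12, so the direction in experiment 2 depended on the scaling for TUBA1B and TUBB4B. Their edgeR log2 fold changes were -0.23 with a standard error of 0.16 for TUBA1B, -0.30 with 0.19 for TUBA1C and -0.16 with 0.18 for TUBB4B. No adjusted p among the 3 was below 0.888. Within experiments none of them was past 1.5-fold. FAM166A, which overlaps TUBB4B by 125 bases, had no more than 9 reads in any library.

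The remaining beta isotypes, TUBB2A, TUBB2B and TUBB3, are best known from neurons. TUBB2A had 15.4 FPKM in control 1, 22.0 in Myc-TRIM40 1, 11.8 in control 2 and 11.7 in Myc-TRIM40 2. TUBB2B had 6.78, 9.43, 4.86 and 4.61 FPKM and TUBB3 8.43, 11.2, 6.40 and 6.23 FPKM in the same order. Each of the 3 was highest in Myc-TRIM40 1 and nearly equal between the libraries of experiment 2. The log2 ratios of FPKM + 1 in experiment 1 were 0.49, 0.42 and 0.38, short of 1.5-fold, and those in experiment 2 were -0.01, -0.06 and -0.03. On the TPM scale the ratios of experiment 2 were positive, at 0.21, 0.14 and 0.18, below the median shift of 0.33. After centring on genes of like length the FPKM ratios of experiment 2 were 0.16 for TUBB2A, -0.02 for TUBB2B and 0.14 for TUBB3. Between the 2 Myc-TRIM40 libraries the 3 genes differed by -0.85, -0.89 and -0.76, more than between conditions in either experiment. TUBB2A and TUBB2B share sequence, so their like values are not 2 separate measurements, and their sum had an edgeR log2 fold change of 0.15. TUBB3 variant 2, which starts nearer to MC1R, had 63 and 103 reads in control 1 and Myc-TRIM40 1 and 0 in both libraries of experiment 2. MC1R had 304, 486, 192 and 210 reads in control 1, Myc-TRIM40 1, control 2 and Myc-TRIM40 2. TUBB6 overlaps AFG3L2, a mitochondrial protease with at least 9236 reads per library, by 882 bases. The edgeR log2 fold change of TUBB6 was -0.20 with a standard error of 1.18. It rests on few reads and cannot be read as a difference, though the median over the 10 isotypes includes it.

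By the rule of 1.5-fold within an experiment, 2 isotypes were lower in experiment 1, TUBA4A and TUBB, and 2 were higher in experiment 2, TUBA1A and TUBA4A. No isotype was higher in experiment 1, where 1.66% of genes were, or lower in experiment 2, where 1.59% were. After centring on the median gene, TUBB was past 1.5-fold in experiment 2 as well. Among the expressed genes alone the shares were 3.01% higher and 0.822% lower in experiment 1 and 10.7% higher and 3.42% lower in experiment 2. These ratios compare libraries, with no replicate within an experiment.

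**Figure D4:**
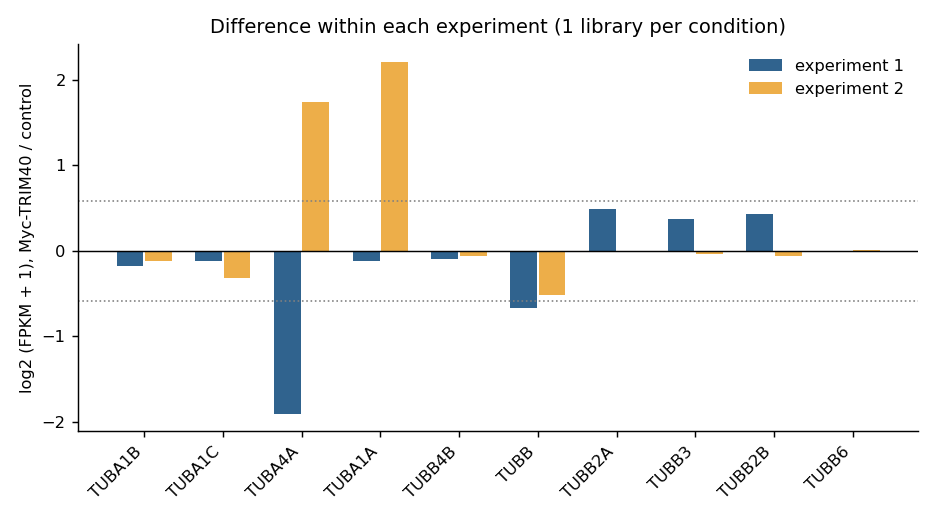
Log2 ratio of FPKM + 1, Myc-TRIM40 over control, within experiment 1 (blue) and experiment 2 (yellow) for the 10 isotypes, with dotted lines at 1.5-fold in either direction. TUBB lies below 0 in both experiments (-0.67 and -0.52), and TUBA4A at -1.90 and 1.74.

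The second comparison was of the make-up of each family. The 4 alpha genes summed to 1940 FPKM in control 1, 1672 in Myc-TRIM40 1, 1907 in control 2 and 1798 in Myc-TRIM40 2, and the 6 beta genes to 927, 828, 850 and 773. Both sums were lower with Myc-TRIM40 within each experiment in FPKM, but on the TPM scale the alpha and beta sums were higher in experiment 2, by 0.15 and 0.10 on the log2 scale, again below the median shift of 0.33. The 10 genes took 0.514%, 0.443%, 0.493% and 0.459% of all reads in control 1, Myc-TRIM40 1, control 2 and Myc-TRIM40 2. The ratio of alpha to beta FPKM was 2.09, 2.02, 2.24 and 2.33 in the same order. It was lower with Myc-TRIM40 in experiment 1 and higher in experiment 2, and the conditions overlapped.

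Among the beta genes TUBB made 17.8% of FPKM in both control libraries, 12.5% in Myc-TRIM40 1 and 13.6% in Myc-TRIM40 2. TUBB4B made 78.9% and 79.4% in control and 82.4% and 83.5% in Myc-TRIM40, in experiments 1 and 2. For both shares the conditions did not overlap, and the exact two-sided permutation test gave p = 0.333, its smallest value. TUBB and TUBB4B made most of beta FPKM, so their shares mirror each other and are not separate results. TUBB4B itself went from 731 FPKM in control to 682 in Myc-TRIM40 in experiment 1, and from 675 to 645 in experiment 2. Its TPM was higher with Myc-TRIM40 in experiment 2. These shares within a library do not change between FPKM and TPM. Among the alpha genes TUBA1B made between 60.9% and 63.4% and TUBA1C between 29.3% and 34.5%. TUBA4A made 5.47% of alpha FPKM in control 1 and 5.42% in Myc-TRIM40 2 but at most 1.65% in the other libraries, and TUBA1A made 0.609% in control 2 and at least 3.19% elsewhere.

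**Figure D5:**
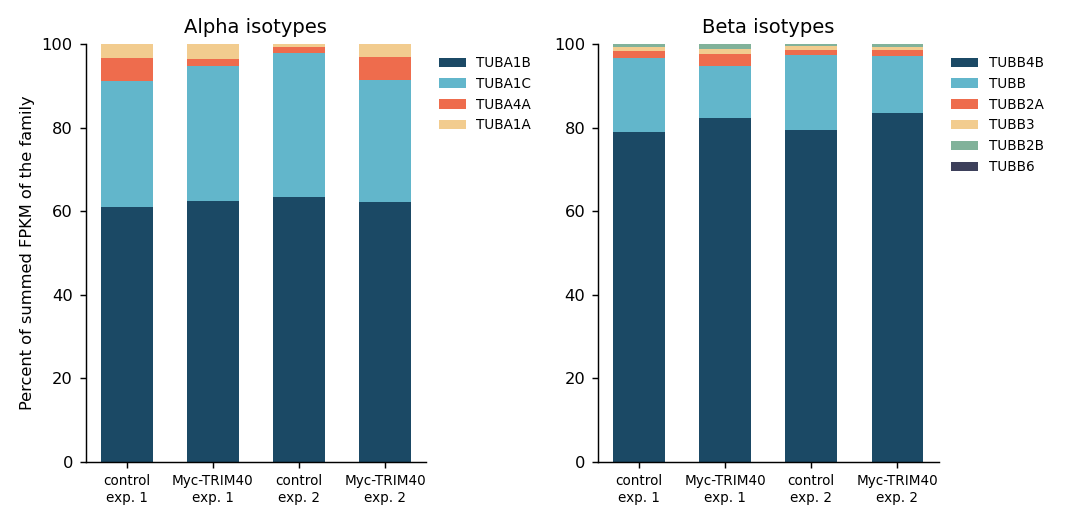
Percent of the summed FPKM of the alpha genes (left) and beta genes (right) made by each isotype in the 4 libraries. TUBB makes 17.8% of beta FPKM in each control library, 12.5% with Myc-TRIM40 in experiment 1 and 13.6% in experiment 2, and TUBA4A makes about the same share in control 1 (5.47%) and Myc-TRIM40 2 (5.42%).

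The 5 genes nearest to TUBB in profile were MPND, SNORA21, DNASE1L1, RPLP0 and RPSAP58, at distances of 0.160, 0.192, 0.222, 0.232 and 0.237. RPLP0, the stalk protein of the large ribosomal subunit, had 1958, 1438, 2096 and 1554 FPKM in control 1, Myc-TRIM40 1, control 2 and Myc-TRIM40 2. DNASE1L1, a relative of DNase I, had 21.1, 11.9, 18.2 and 10.4 FPKM, and MPND, a protease-like protein, had 10.8, 6.93, 9.41 and 7.34. All 5 were lower in both Myc-TRIM40 libraries, which is the pattern by which they were found. SNORA21, a small nucleolar RNA, had 8.97 FPKM at most, and RPSAP58, a ribosomal pseudogene, 17.2.

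The 13 other tubulin genes gave few reads except for gamma, delta and epsilon tubulin. TUBG1, the gamma tubulin that nucleates microtubules, had 75.0, 71.1, 52.0 and 60.8 FPKM in control 1, Myc-TRIM40 1, control 2 and Myc-TRIM40 2, and its paralog TUBG2 had 13.5, 13.7, 8.51 and 9.55. TUBD1 and TUBE1, tubulins of centrioles, lay between 3.78 and 4.95 and between 3.82 and 4.62 FPKM. TUBA8, TUBAL3, TUBB1 and TUBB4A had at most 0.580, 0.291, 0.109 and 0.0937 FPKM, and TUBA3C, TUBA3D, TUBA3E, TUBA4B and TUBB8 had 0 reads in all libraries. The edgeR test covered 7 of the 13 and called 0 higher and 0 lower.

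Genes that act on tubulin were taken from lists by role, and edgeR called 0 of them in either direction at an adjusted p of 0.05. A list of 22 genes held tubulin chaperones and cofactors with related factors, and not all of them fold tubulin. Of these 22, 3 had a positive log2 fold change, TBCEL at 0.54, TBCE at 0.01 and TTC5 at 0.01. The median was -0.22 beside 0.04 for all genes tested. The chaperonin subunits CCT7 and CCT3 were the most abundant, with 276, 260, 366 and 319 FPKM and 234, 227, 277 and 259 FPKM in control 1, Myc-TRIM40 1, control 2 and Myc-TRIM40 2. At an unadjusted p of 0.05 TBCEL alone was higher in this list. The median log2 ratio of the list was -0.03 in experiment 1 and -0.24 in experiment 2, and -0.04 and -0.07 after centring on genes of like length.

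Of 23 microtubule-associated and end-binding proteins tested, 21 had a positive log2 fold change, with a median of 0.26. The list's median log2 ratio was -0.02 in experiment 1 and 0.44 in experiment 2, and it was -0.04 and 0.09 after centring on genes of like length. The end-binding protein MAPRE1 had 89.2, 85.5, 110 and 116 FPKM and the spindle factor TPX2 had 86.5, 78.7, 88.3 and 99.0 in control 1, Myc-TRIM40 1, control 2 and Myc-TRIM40 2. At an unadjusted p of 0.05 the neuronal proteins MAP1A and MAP2 were higher, with adjusted p of 0.587 and 0.557 in edgeR, and neither exceeded 0.754 FPKM in any library.

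The list of 20 nucleation factors had a median of 0.01 and 10 positive values. MZT2B, a subunit of the gamma tubulin ring complex, had 66.7 FPKM in control 1, 43.9 in Myc-TRIM40 1, 79.4 in control 2 and 47.8 in Myc-TRIM40 2. It was past 1.5-fold lower in both experiments, alone among the genes of these lists, with log2 ratios of FPKM + 1 of -0.59 and -0.72. Among expressed genes 0.822% were that much lower in experiment 1 and 3.42% in experiment 2. The edgeR log2 fold change of MZT2B was -0.74 with an adjusted p of 0.862. Whether its ratio in experiment 2 came with the length trend of control 2 was not tested. MZT2A, a near-copy of MZT2B, had 60.4, 58.9, 94.4 and 56.8 FPKM, and reads may be split between the pair. The 19 tested genes that modify tubulin had a median of 0.07, and the most abundant, TTLL12 and AGBL5, had 43.8, 41.1, 28.0 and 36.5 FPKM and 28.5, 24.9, 20.4 and 24.2 FPKM in the same order. The 10 tested genes that take microtubules apart had a median of -0.11. Stathmin (STMN1) had 115, 97.6, 234 and 179 FPKM and the depolymerizing kinesin KIF2C 38.3, 35.0, 34.5 and 36.8. The 10 proliferation genes, markers of dividing cells, had a median of -0.05, and 9 of them were lower in experiment 1 and 6 higher in experiment 2.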

How the data were processed

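RNA from HT-29 cells with control vector or Myc-TRIM40 was sequenced in 2 experiments, with 1 library per condition in each and 4 libraries in all. For every RefSeq transcript the deposited tables hold an estimated count, given as a whole number. The authors also deposited FPKM, a count normalized to transcript length and depth, and for experiment 2 the TPM; for experiment 1 TPM was computed here from FPKM. The submitters' processing notes name HISAT2 2.1.0, StringTie 1.3.4d and hg19.

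Transcripts were summed per gene, 63714 to 27685. Genes kept by filterByExpr (14868) were tested with edgeR 4.0.16 (glmQLFTest, TMM, Benjamini-Hochberg) in R 4.3.3, blocked by experiment. Labels number the replicates but name no experiment. Replicate numbers were taken as experiments because the authors report independent experiments and each file holds 1 library of each condition. Same-numbered libraries deviated together from their condition means (correlation 0.612 over 11801 genes). Within an experiment, the ratio of FPKM + 1 was set against 1.5-fold. With 1 residual degree of freedom, p-values rest mostly on a spread borrowed from all genes, and they cover only these libraries. On simulated counts for 14713 genes the fit recovered 116 of 197 changed genes, and 93 of 97 changed by the larger fold. Recovery was thus lower for the smaller fold, and 6 unchanged genes were called. The simulated counts held no difference between experiments, so this recovery cannot be carried over to these libraries.

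The genes named were the 10 isotypes, their transcripts with at least 10 reads, overlapping or adjoining genes, the other tubulins, listed genes called or past 1.5-fold in both experiments, the 2 most abundant per list, and the 5 nearest in profile to TUBA4A and TUBB. TBCEL, MAP1A, MAP2 and the neighbours of TUBA1A fall outside this rule and were chosen after their values were seen. Members and lists were chosen with earlier results of these data known. Promoters came from RefSeq (GRCh38; all 10 genes matched) and coding sequences from GENCODE; the coding ends of the alpha genes are not reported here. Alternatives were no block, DESeq2 1.42.0, upper-quartile scaling, no filter, limma 3.58.1, summed near-copies, other pseudocounts and thresholds, and single experiments. Microarray and tissue samples were not analysed here.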

Additional observations from a re-analysis of the deposited data

Results flagged for a closer look

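TUBA4A was singled out because its single comparison in experiment 1 and that in experiment 2 pointed in opposite directions, with log2 ratios of FPKM + 1 of -1.90 and 1.74, which lie 3.64 apart. The difference between experiments was not tested, since each had 1 library per condition. The libraries labelled control vector held no TRIM40 reads in either experiment. Control 1 and control 2 differed by -1.86 in TUBA4A and the Myc-TRIM40 libraries by 1.78, so the gene varied as much within a condition as within an experiment.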

How the results depend on the processing

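No isotype was called higher or lower by edgeR, DESeq2, limma, upper-quartile scaling, no filter, summed near-copies or, in a setting chosen after seeing the data, without control 2, and the fit without the replicate block called 0 higher and 0 lower as well. TUBB kept a negative log2 fold change in all of these, from -0.73 to -0.60, with adjusted p from 0.218 to 1.00. TUBA1A changed sign without control 2, to -0.18, and TUBB6, with almost no reads, was at 0.0039 in limma on log2 (FPKM + 1); the cause was not tested. With single experiments, TUBA4A ranged from -1.98 (experiment 1) to 1.66 (experiment 2), TUBA1A from -0.16 to 2.15 and TUBB from -0.74 to -0.67. At 2-fold in place of 1.5-fold, 1 isotype was lower in experiment 1, TUBA4A, and after median centring 1 was lower in experiment 2, TUBB. Reads in place of FPKM put the mean TUBB share of the beta genes at 25.1% in control and 18.6% in Myc-TRIM40, as its transcripts average 2487 bases and those of TUBB4B 1591. A pseudocount of 0.1, a minimum FPKM, TPM and length centring (added after seeing the data) left the counts of isotypes past 1.5-fold as they were. Length centring turned the FPKM ratios of TUBA1B, TUBB4B, TUBB2A and TUBB3 in experiment 2 from negative to positive. Precision is limited by the number of experiments, 2, and the effect of depth was not measured.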
